A study of Mus musculus with 4 samples.

Results

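Hyaluronan is a long sugar polymer of the extracellular matrix, and 8 genes that make it, bind it or break it down were followed through the cells of the mouse lung. They were chosen by gene symbol, with earlier results of these data known, and are 8 of 32285 genes in the files. Has1 and Has2 encode synthases, Tnfaip6 and Vcan encode secreted proteins that bind hyaluronan in the matrix, Cd44 and Hmmr encode receptors, and Hyal1 and Hyal2 encode hyaluronidases. The lungs came from 4 groups of mice: LAIR1KO mice bearing B16/F10 tumors (a mouse melanoma line), WT mice bearing B16/F10 tumors, LAIR1KO mice with normal lungs and WT mice with normal lungs. LAIR1 is an inhibitory receptor of immune cells that binds collagen, and the study's title places it in monocytes and interstitial macrophages. How the knockout was made, the age of the mice, the time after tumor injection and the way the lungs were dissociated are not given in the sources used here. Each group was a single 10x Genomics 3' version 3 library of 3 hashtagged replicates, so library and group cannot be told apart, and 12 replicates carry the comparisons. The labels do not say that each hashtag marks 1 animal, so p-values measure the spread between hashtag replicates.

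Hyaluronan synthases sit in the plasma membrane and join UDP-glucuronic acid and UDP-N-acetylglucosamine into a chain that they push out of the cell as it grows. The protein of Tnfaip6, TSG-6, moves the heavy chains of inter-alpha-inhibitor onto hyaluronan, which cross-links the polymer, and versican, the product of Vcan, is a large proteoglycan that attaches to it. CD44 is the main receptor for hyaluronan on the cell surface, HYAL2 is an anchored enzyme that cuts long chains and HYAL1 finishes the digestion in lysosomes. In the lung, hyaluronan lies in the connective tissue around vessels and airways, and its amount is known to rise with injury and inflammation.

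Has1 (ENSMUSG00000003665; mm10 chromosome 17, 17843323 to 17855205, minus strand) and Tnfaip6 (ENSMUSG00000053475; mm10 chromosome 2, 52038009 to 52056686, plus strand) had their highest means in the same subtype of fibroblasts. Their promoters are therefore shown, as the RefSeq sequence (GRCm38.p6) of the 250 bases before the RefSeq start, less the bases that lie within the GENCODE gene. Letters run 5' to 3' along the gene's strand, and capitals mark matches, on either strand, to the AP-1 string TGANTCA or the CRE string TGACGTCA.
Has1, chr17:17855206-17855438, minus strand: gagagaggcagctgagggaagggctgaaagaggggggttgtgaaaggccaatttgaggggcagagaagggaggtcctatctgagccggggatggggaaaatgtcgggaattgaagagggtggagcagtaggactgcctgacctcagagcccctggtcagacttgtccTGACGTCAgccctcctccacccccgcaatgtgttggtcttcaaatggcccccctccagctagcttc
Tnfaip6, chr2:52037863-52038008, plus strand: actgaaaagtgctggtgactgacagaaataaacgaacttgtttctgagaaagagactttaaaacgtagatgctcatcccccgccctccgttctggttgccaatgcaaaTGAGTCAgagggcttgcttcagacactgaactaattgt
The Has1 window held 1 CRE match, which 1.55% of 32851 RefSeq windows of the full length hold. The Tnfaip6 window held 1 AP-1 match, a string in 6.75% of windows. The string TATAAA was also searched, and it had no match in either window and one in 12.4% of all. The AP-1 and CRE strings did not overlap each other in the windows shown. The strings were chosen after the levels were seen, and a match is a string of letters, not a bound site. A RefSeq window was found for 7 of the 8 genes, not for Has2. The other 5 windows, at their full 250 bases, held no match to any of these strings. The Hyal2 window lay wholly within its GENCODE gene, so its lack of a match does not bear on the bases before that gene.

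The 4 libraries held 25216301 to 28034709 gene UMIs (unique molecular identifiers, counts of captured RNA molecules). Of 16350 barcodes 15793 passed filters on quality and 8468 kept a single hashtag, 2400 in LAIR1KO tumor-bearing lungs, 2287 in WT tumor-bearing lungs, 2011 in LAIR1KO normal lungs and 1770 in WT normal lungs, and 27 barcode strings occurred in more than 1 library. Lair1 checked the labels: interstitial macrophage-like cells held 1 UMI in LAIR1KO tumor-bearing lungs against 565 in WT tumor-bearing lungs, and 0 in LAIR1KO normal lungs against 218 in WT normal lungs. The WT normal mice were male by their transcripts (the Y-linked Ddx3y at 191 CPM) and the other 3 groups female, so sex cannot be told apart from group in any comparison with WT normal lungs. Cells were clustered without the 8 genes and given names by lists of marker genes; "-like" in a name says that only such markers support it. Of 3344 fibroblast-like cells 60.6% had no hashtag call, against 10.4% of neutrophil-like cells, and 1252 were kept. LAIR1KO normal replicate 1 had under 10 cells of each fibroblast subtype, so fibroblast values rest on 11 replicates at most.

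The 1252 fibroblast-like cells formed 4 subtypes, alveolar (391 cells), one led by Gas1 and Eln (428), inflammatory (348) and adventitial (85). All 7 inflammatory markers, stress and cytokine genes (Mmp3, Il6, Cxcl1, Ccl2, Ccl7, Saa3 and Timp1), were detected in each of the 4 subtypes. Together they took 160.0 of each 10000 UMIs in the inflammatory subtype, against 50.7 in adventitial, 34.2 in Gas1 and Eln and 21.2 in alveolar cells. The adventitial markers took 66.0 of 10000 UMIs in adventitial cells and at most 18.8 in the other subtypes. The inflammatory subtype made up 28.9% in LAIR1KO tumor-bearing lungs, 26.1 in WT tumor-bearing lungs, 29.1 in LAIR1KO normal lungs and 28.03 in WT normal lungs as a percentage of fibroblast-like cells.

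Has1, one of the synthases, was a gene of fibroblast-like cells, and among them of the inflammatory and adventitial subtypes. In inflammatory fibroblast-like cells it stood at 1161, 1358 and 1064 CPM in LAIR1KO tumor-bearing lungs, 1103, 1198 and 1749 in WT tumor-bearing lungs, 1343 and 1903 in LAIR1KO normal lungs, and 1202, 745 and 940.5 in WT normal lungs. Every replicate lay above every replicate of the Gas1 and Eln and alveolar subtypes, and among the groups only LAIR1KO normal and WT normal lungs did not overlap. The mean was 1251 ± 334 CPM (SD, n = 11), in UMIs of the gene per 1000000 UMIs of the same cells (CPM). When the cells were clustered at a lower resolution, the level pooled over replicates, which is not this mean, was 770.4 CPM. Adventitial fibroblast-like cells, with 4 replicates of at least 10 cells, stood at 1067 and 781 CPM in LAIR1KO tumor-bearing lungs, 2264 in WT tumor-bearing lungs, and 609 in WT normal lungs. Their mean of 1180.1 ± 747 CPM (SD, n = 4) overlapped that of the inflammatory subtype, and WT tumor-bearing lungs held the highest value. In the Gas1 and Eln subtype Has1 ranged over 131 to 502 CPM with a mean of 372 ± 105 CPM (SD, n = 11), below every adventitial replicate. Alveolar fibroblast-like cells ranged over 0 to 378 CPM, with a mean of 101 ± 103 CPM (SD, n = 11), and overlapped the Gas1 and Eln subtype. Outside fibroblasts, mesothelial-like cells, which line the lung's surface, held Has1 at 522 CPM (207 UMIs in 26 cells, exact Poisson interval 453 to 598 CPM), with too few cells for a value per replicate. The 6 general fibroblast markers took 54.4 of 10000 UMIs in these cells, against 51.7 in alveolar fibroblast-like cells. The 7 mesothelial markers took 68.9 in the mesothelial-like cells, and the part of the fibroblast transcripts in the Has1 level was not tested. In the 13 other classes with at least 3 replicates the mean was at most 13.6 CPM. Pericyte or smooth muscle-like cells were at 0 in the 3 replicates with at least 10 cells but held 35.1 CPM (26 UMIs in 76 cells, exact Poisson interval 22.9 to 51.4 CPM) over all libraries, every UMI of it in the LAIR1KO tumor-bearing library. The highest mean, in alveolar macrophage-like cells, covers tumor-bearing lungs only, and in LAIR1KO normal lungs 29 Has1 UMIs came from 8 such cells.

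**Figure D1:**
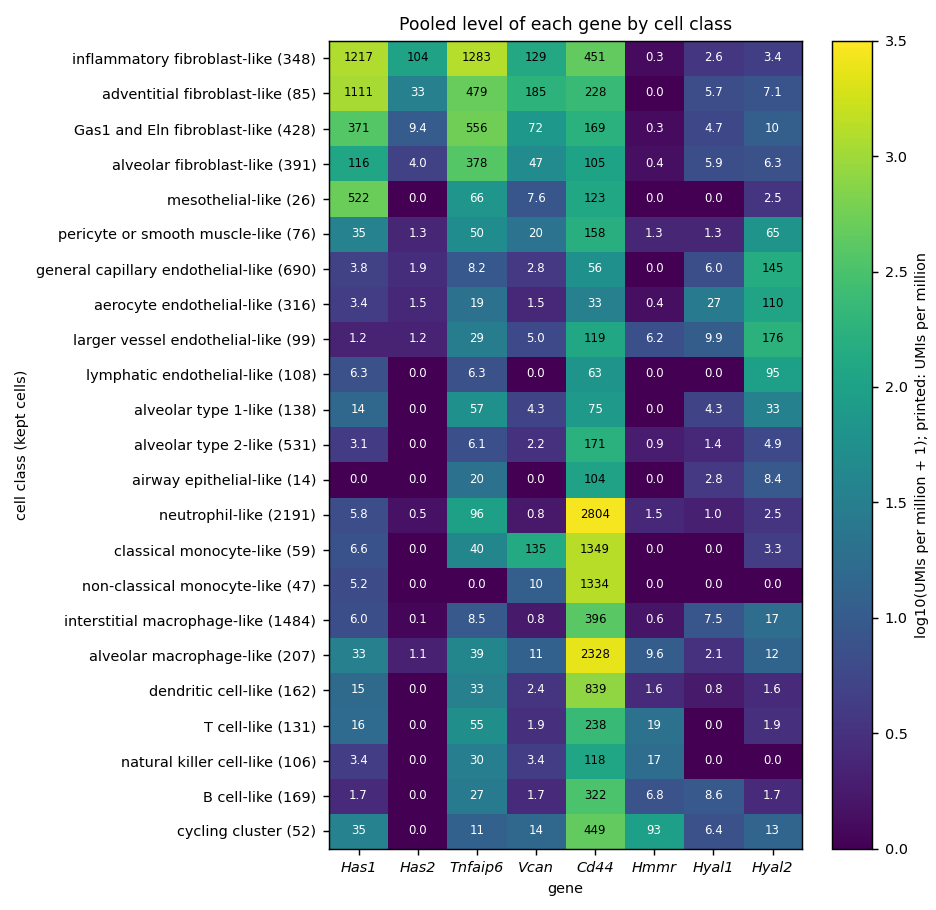
Level of the 8 genes (columns) in each cell class (rows, with the number of kept cells), pooled over the 4 libraries. Colour is log10 of CPM plus 1 and the printed numbers are CPM; Has1, Has2, Tnfaip6 and Vcan are highest in rows of fibroblast-like cells, Cd44 in neutrophil-like and alveolar macrophage-like cells, Hyal2 in endothelial-like cells and Hmmr in the cycling cluster.

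Has2 (at ENSMUSG00000022367; mm10 chromosome 15, 56665627 to 56694539, minus strand), the other synthase, was scarcer and was counted in the same 2 subtypes. Inflammatory fibroblast-like cells held 81.9, 104 and 99.1 CPM in LAIR1KO tumor-bearing lungs, 75.0, 83.7 and 159 in WT tumor-bearing lungs, 83.5 and 52.3 in LAIR1KO normal lungs, and 99.5, 94.8 and 125 in WT normal lungs. The LAIR1KO normal replicates lay below the WT normal ones and the other pairs of groups overlapped, with the highest replicate in WT tumor-bearing lungs and the lowest in LAIR1KO normal lungs. The mean was 96.1 ± 27.8 CPM (SD, n = 11). At the lower clustering resolution the level pooled over replicates, which is not this mean, was 54.0 CPM. The adventitial subtype stood at 51.6 and 28.4 CPM in LAIR1KO tumor-bearing lungs, 51.7 in WT tumor-bearing lungs, and 46.8 in WT normal lungs. No replicate of the 2 subtypes overlapped, but this rests on few UMIs. The nearest replicates held 5 UMIs in 10 cells (inflammatory, LAIR1KO normal) and 4 UMIs in 12 cells (adventitial, WT tumor-bearing). The Gas1 and Eln subtype averaged 6.81 ± 5.84 CPM (SD, n = 11) and the alveolar subtype 3.57 ± 5.84 CPM (SD, n = 11). Mesothelial-like cells, which held Has1, had 0 Has2 UMIs in 26 cells, which allows up to 9.30 CPM by the exact Poisson interval. Has2 overlaps the antisense gene Has2os, and the use of strand in counting is not given in the sources used here, so reads of the pair cannot be told apart. Has3, the third synthase of the mouse, had 14 UMIs in all kept cells.

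After each cell was thinned to 3000 UMIs, Has1 was detected in 64.7% of inflammatory, 61.8% of adventitial, 25.4% of Gas1 and Eln and 8.81% of alveolar fibroblast-like cells. Thinning left out 5, 9, 11 and 39 shallower cells, and before it the shares were 75.3, 70.6, 32.7 and 14.1% in that order of subtypes. In alveolar type 2-like cells, an epithelium not known for these genes, 0.567% had a Has1 UMI, with a median of 9938 UMIs per cell before thinning against 9462 in the inflammatory subtype. Mesothelial-like cells had Has1 in 61.5% of cells. Has2 was detected in 16.3% of inflammatory and 14.5% of adventitial cells, 2.88% of Gas1 and Eln and 0.852% of alveolar cells, and in 0 of 529 alveolar type 2-like cells, which allows up to 0.695%. Tnfaip6 was detected in 78.7% of inflammatory, 47.5% of Gas1 and Eln, 42.1% of adventitial and 38.9% of alveolar fibroblast-like cells, and in 1.13% of alveolar type 2-like cells. The 3 genes were thus found in a larger share of inflammatory than of alveolar fibroblast-like cells at the same depth. Intervals of shares and of pooled levels cover counting error only, at 95%.

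Tnfaip6, whose protein cross-links hyaluronan, was counted in all 4 fibroblast subtypes. In inflammatory fibroblast-like cells it stood at 1659, 957 and 1219 CPM in LAIR1KO tumor-bearing lungs, 1668, 889 and 1252 in WT tumor-bearing lungs, 1419 and 1045 in LAIR1KO normal lungs, and 1288, 1491 and 1191 in WT normal lungs. The groups overlapped, with replicates on both sides of the mean of 1279.8 ± 261 CPM (SD, n = 11). The mean was 512 ± 183 CPM (SD, n = 11) in Gas1 and Eln, 436 ± 275 CPM (SD, n = 11) in alveolar and 431 ± 252 CPM (SD, n = 4) in adventitial cells, and these 3 overlapped one another. The inflammatory range of 889 to 1668 CPM overlapped that of the Gas1 and Eln subtype, 189.6 to 911 CPM, at its low end. Among the other classes, neutrophil-like cells were the next, at 156, 131 and 78.2 CPM in LAIR1KO tumor-bearing lungs, 100.1, 101 and 139 in WT tumor-bearing lungs, 45.5, 79.4 and 69.1 in LAIR1KO normal lungs, and 103, 80.7 and 60.4 in WT normal lungs. Their mean was 95.2 ± 33.1 CPM (SD, n = 12), close to the 87.9 ± 74.0 CPM (SD, n = 4) of alveolar type 1-like cells, whose range of 21.1 to 153 CPM overlapped it.

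Vcan, the versican gene (ENSMUSG00000021614; mm10 chromosome 13, 89655312 to 89742509, minus strand), was highest in adventitial fibroblast-like cells, at 327 and 107 CPM in LAIR1KO tumor-bearing lungs, 181 in WT tumor-bearing lungs, and 122 in WT normal lungs. The mean there was 184 ± 101 CPM (SD, n = 4), and it overlapped the 127 ± 30.9 CPM (SD, n = 11) of inflammatory cells, the 59.0 ± 18.1 CPM (SD, n = 11) of Gas1 and Eln cells overlapped the inflammatory range in turn, and the 44.1 ± 20.7 CPM (SD, n = 11) of alveolar cells overlapped that. LAIR1KO normal replicate 1, left out of these means, held 42 Vcan UMIs in 7 Gas1 and Eln cells (550 CPM) and 0 in 6 alveolar cells. Among blood cell classes Vcan was highest in classical monocyte-like cells, at 135 CPM (41 UMIs in 59 cells, exact Poisson interval 97.1 to 183 CPM). By library this was 70.9 CPM in LAIR1KO tumor-bearing lungs, 104 in WT tumor-bearing lungs, 89.5 in LAIR1KO normal lungs and 281 in WT normal lungs, and 87.6 CPM over the other libraries without WT normal lungs, which held 21 of the UMIs. Non-classical monocyte-like cells held 10.5 CPM (2 UMIs in 47 cells, exact Poisson interval 1.27 to 37.8 CPM), both UMIs in LAIR1KO normal lungs, and interstitial macrophage-like cells averaged 0.545 ± 0.743 CPM (SD, n = 12). Fibroblast markers were near 0 in the classical monocyte-like cells, where the 6 genes together took 0.330 of 10000 UMIs. Vcan overlaps the gene models Gm16318 and Gm4117, and their reads may not be separable.

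**Figure D2:**
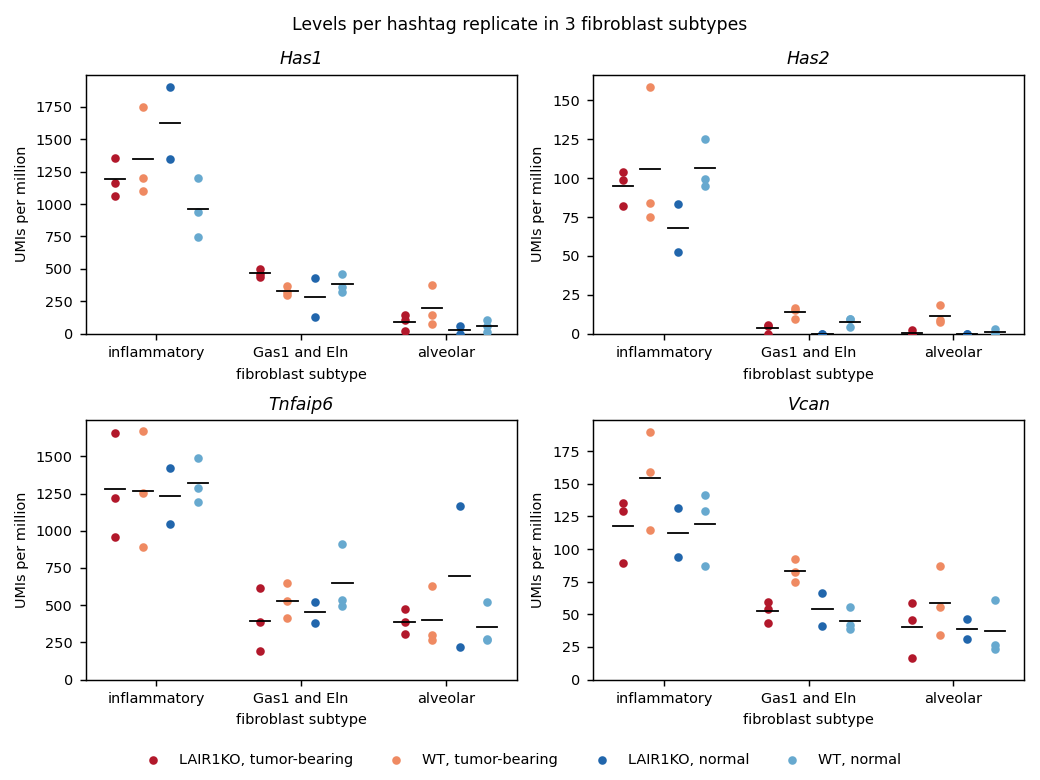
Has1, Has2, Tnfaip6 and Vcan in 3 fibroblast subtypes, in CPM. Each point is a hashtag replicate with at least 10 cells, coloured by group, and the bars mark group means; Has1 in inflammatory cells runs from 745 to 1903 and in alveolar cells from 0 to 378, with the groups intermingled in most panels.

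The fibroblast subtypes held most UMIs of these 4 genes in the kept cells. Has1 had 7624 UMIs, of which 55.8% (Clopper-Pearson interval 54.7 to 56.9%) were in inflammatory fibroblast-like cells, 4.11% of all kept cells, and 88.6% in fibroblast-like cells of any subtype. Has2 had 478 UMIs, with 75.9% (Clopper-Pearson interval 71.9 to 79.7%) in the inflammatory subtype and 90.4% in all fibroblasts. For Tnfaip6 the shares were 46.1% and 81.3% of 9730 UMIs, with 3.93% in neutrophil-like cells. For Vcan they were 37.5% and 81.1% of 1203 UMIs, with 3.41% in classical monocyte-like cells. A share depends on how many cells of a class were captured and kept, and most fibroblast-like cells were lost for want of a hashtag. With cells of no hashtag call added back, the inflammatory subtype held 55.1% of the Has1 and 69.2% of the Has2 UMIs.

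**Figure D3:**
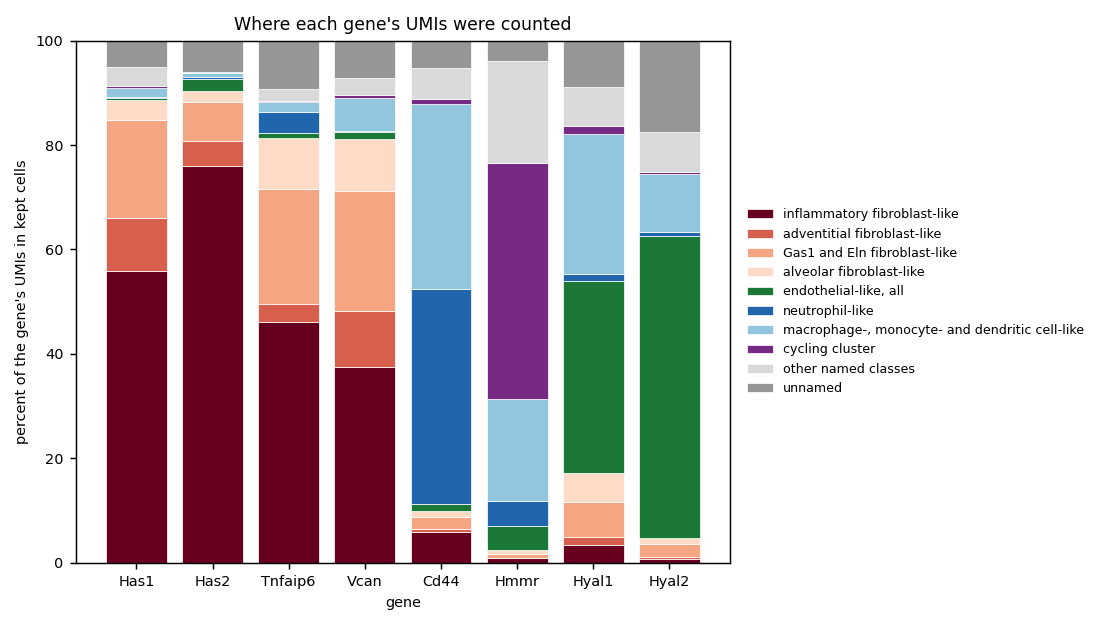
Percent of each gene's UMIs (bars, adding to 100) that was counted in each group of cell classes, over all kept cells of the 4 libraries. Inflammatory fibroblast-like cells hold 55.8% of Has1 and 75.9% of Has2, neutrophil-like cells 41.3% of Cd44 and endothelial-like cells 58.0% of Hyal2.

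Cd44, the receptor (ENSMUSG00000005087; mm10 chromosome 2, 102811141 to 102901665, minus strand), was a gene of neutrophils and other myeloid cells, with every class above 0 in its mean. Neutrophil-like cells held 2828, 3435 and 3317 CPM in LAIR1KO tumor-bearing lungs, 2921, 2736 and 2826 in WT tumor-bearing lungs, 2612, 2476 and 2513 in LAIR1KO normal lungs, and 2614, 2974 and 2877 in WT normal lungs. LAIR1KO tumor-bearing lungs had the highest pair of replicates, and the 3 LAIR1KO normal replicates lay below those of every other group. The mean was 2844 ± 295 CPM (SD, n = 12). Alveolar macrophage-like cells, with replicates in tumor-bearing lungs only, averaged 2385 ± 231 CPM (SD, n = 6) and overlapped the neutrophil-like cells. Of the classes with at least 3 replicates, dendritic cell-like cells followed at 871 ± 119 CPM (SD, n = 8), below every alveolar macrophage-like replicate. Classical and non-classical monocyte-like cells stood at 1349 and 1334 CPM when pooled over libraries (409 and 255 UMIs). Inflammatory fibroblast-like cells came next at 472 ± 89.0 CPM (SD, n = 11), with a range of 317 to 586 CPM that lay below every dendritic cell-like replicate. The Gas1 and Eln subtype averaged 158 ± 31.4 CPM (SD, n = 11) and the alveolar subtype 102 ± 34.0 CPM (SD, n = 11), and both ranges lay below that of the inflammatory subtype. The adventitial subtype averaged 256 ± 160 CPM (SD, n = 4), and its range of 103 to 482 CPM overlapped the ranges of all other subtypes.

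Interstitial macrophage-like cells held Cd44 at 512, 322 and 333 CPM in LAIR1KO tumor-bearing lungs, 433, 405 and 520.4 in WT tumor-bearing lungs, 364, 388 and 413 in LAIR1KO normal lungs, and 281, 279.5 and 363 in WT normal lungs. The 3 WT normal replicates lay below those of WT tumor-bearing and of LAIR1KO normal lungs, and the LAIR1KO groups overlapped. Their mean of 384 ± 78.2 CPM (SD, n = 12) overlapped that of the inflammatory fibroblasts and lay below the alveolar macrophage-like range. Lymphoid cells were lower, B cell-like cells at 283 ± 60.4 CPM (SD, n = 9), T cell-like cells at 255 ± 156 CPM (SD, n = 7) and natural killer cell-like cells at 135 ± 44.7 CPM (SD, n = 4). Alveolar type 2-like cells averaged 169.9 ± 38.1 CPM (SD, n = 11). Endothelial-like cells were at the low end, with 65.0 ± 21.2 CPM (SD, n = 12) in general capillary and 29.1 ± 18.8 CPM (SD, n = 11) in aerocyte cells, the 2 capillary types of the lung. Of 27113 Cd44 UMIs, 41.3% were in neutrophil-like cells, 16.1% in alveolar macrophage-like cells and 13% in interstitial macrophage-like cells. Isoforms of Cd44, which differ in their variable exons, cannot be read from counts per gene.

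**Figure D4:**
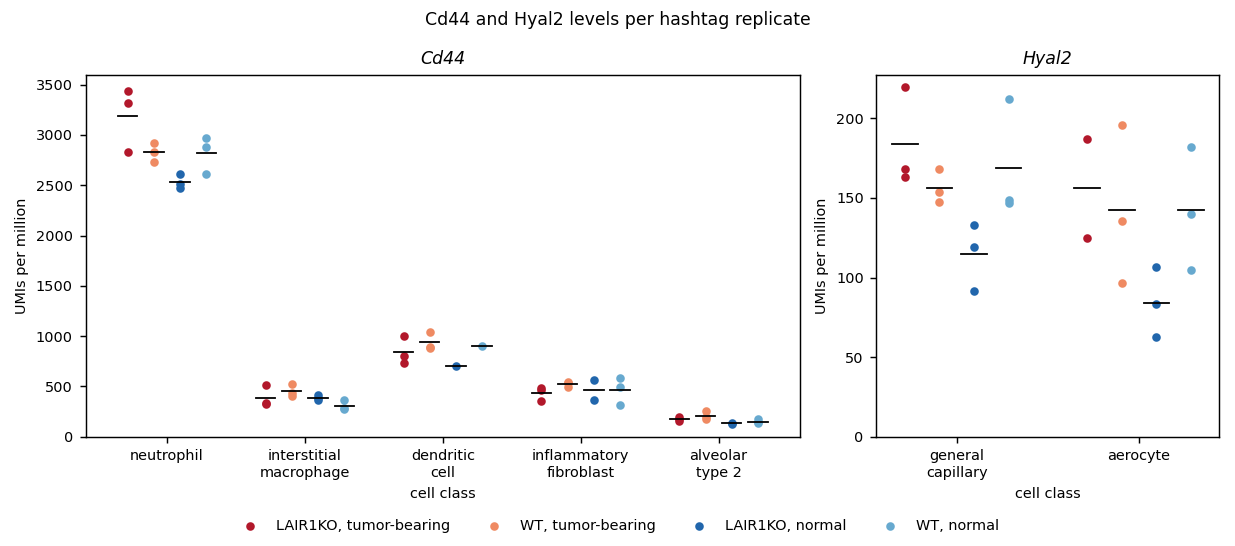
Cd44 and Hyal2 by cell class, in CPM. Each point is a hashtag replicate with at least 10 cells, coloured by group, and the bars mark group means; Cd44 in neutrophil-like cells lies between 2476 and 3435, and Hyal2 in general capillary cells between 91.2 and 219.6, with LAIR1KO normal lungs lowest in that class.

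Hmmr (ENSMUSG00000020330; mm10 chromosome 11, 40701395 to 40733422, minus strand), known both as a hyaluronan receptor and as a protein of the mitotic spindle, was a gene of dividing cells, with 128 UMIs in all. The cycling cluster, named for genes of cell division and not a cell type, held 58 of them in 25 of its 52 kept cells, 92.7 CPM and 45.3% of all Hmmr UMIs. Its cells came to 13 from LAIR1KO tumor-bearing lungs, 23 from WT tumor-bearing lungs, 7 from LAIR1KO normal lungs and 9 from WT normal lungs. Of the 52, 45 had at least 3 interstitial macrophage markers, and these held 41 Hmmr UMIs. Over all 90 filtered cells of the cluster, the leading genes included Dct, Tyrp1 and Pmel, genes of pigment cells such as melanoma. No kept cell of the cluster had 3 melanoma markers. Among all filtered cells outside hashtag doublets 6 cells had at least 3 melanoma markers, 5 from LAIR1KO tumor-bearing and 1 from WT tumor-bearing lungs, and 2 of them held 23 Hmmr UMIs. T cell-like cells averaged 17.7 ± 23.4 CPM (SD, n = 7) and natural killer cell-like cells 19.1 ± 38.1 CPM (SD, n = 4), and their replicates ranged from 0 to 61.8 and 0 to 76.2 CPM. All 5 Hmmr UMIs of the natural killer cell-like cells came from LAIR1KO tumor-bearing replicate 1. In the other classes with at least 3 replicates the mean was at most 3.54 CPM. That of alveolar macrophage-like cells covers tumor-bearing lungs only. In normal lungs 12 Hmmr UMIs came from 4 such cells of LAIR1KO replicate 1, and the other normal replicates held 0.

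Hyal2 (ENSMUSG00000010047; mm10 chromosome 9, 107567945 to 107572779, plus strand), the anchored hyaluronidase, was a gene of endothelial-like cells. General capillary cells held 163, 219.6 and 168 CPM in LAIR1KO tumor-bearing lungs, 168, 154 and 147 in WT tumor-bearing lungs, 119, 91.2 and 133 in LAIR1KO normal lungs, and 148, 212 and 147 in WT normal lungs. The 3 LAIR1KO normal replicates were the lowest of the 12, below those of every other group. The mean was 156 ± 35.5 CPM (SD, n = 12). Aerocyte cells held 125 and 187 CPM in LAIR1KO tumor-bearing lungs, 196, 96.8 and 136 in WT tumor-bearing lungs, 107, 83.1 and 62.4 in LAIR1KO normal lungs, and 139.6, 182 and 105 in WT normal lungs, where the LAIR1KO normal replicates again lay below both LAIR1KO tumor-bearing ones but overlapped the WT groups. Their mean of 129 ± 44.1 CPM (SD, n = 11) overlapped that of general capillary cells. Larger vessel endothelial-like cells stood at 176 CPM (142 UMIs in 99 cells, exact Poisson interval 148 to 208 CPM) and pericyte or smooth muscle-like cells at 89.2 ± 8.85 CPM (SD, n = 3). Lymphatic endothelial-like cells stood at 63.1 ± 37.0 CPM (SD, n = 5), with a range of 0 to 90.8 CPM. Their replicates held only 11352 to 33042 UMIs of all genes, so this mean rests on very few Hyal2 UMIs. Alveolar type 1-like cells averaged 31.5 ± 10.1 CPM (SD, n = 4), and the 4 fibroblast subtypes at most 8.98 CPM. Of 1571 Hyal2 UMIs 29.3% were in general capillary and 18.7% in aerocyte cells, and 17.4% in unnamed clusters, which held genes of several classes.

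Hyal1 (ENSMUSG00000010051; mm10 chromosome 9, 107576927 to 107581710, plus strand), the lysosomal hyaluronidase, was highest in one of the same cell types. Aerocyte endothelial-like cells held 38.0 and 22.4 CPM in LAIR1KO tumor-bearing lungs, 16.3, 33.7 and 45.2 in WT tumor-bearing lungs, 24.5, 18.2 and 8.92 in LAIR1KO normal lungs, and 40.7, 21.4 and 58.2 in WT normal lungs. The groups overlapped, with the lowest replicate in LAIR1KO normal and the highest in WT normal lungs. The mean was 29.8 ± 14.7 CPM (SD, n = 11), and all 16 other classes with at least 3 replicates averaged 7.74 CPM or less. Interstitial macrophage-like cells averaged 7.34 ± 2.81 CPM (SD, n = 12) and overlapped the aerocyte cells. Through their number they held 24.9% of 269 Hyal1 UMIs, against 26.8% in aerocyte cells. Hyal1 overlaps Hyal3, Naa80 and Gm16343, and Hyal2 overlaps Gm9917, so part of these low counts may belong to a neighbour.

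The genes with the most similar pattern over 20 classes of at least 50 cells were ranked by Pearson's r of log2(CPM + 10). The classes share libraries and differ in depth, so r is a description. For Has1 they were Gfpt2 (0.98), Col5a3 (0.97), Islr (0.96), Sobp (0.95) and Clec11a (0.95). For Has2 they were Bdkrb1 (0.97), Col28a1 (0.96), Tac1 (0.95), Alpl (0.93) and Il11 (0.92), and for Tnfaip6 Itpkc (0.92), Arih1 (0.91), Adamts17 (0.91), Gfpt2 (0.91) and Col5a3 (0.90). Gfpt2, the aminotransferase at the entry to UDP-N-acetylglucosamine synthesis, and the collagen gene Col5a3 stood in the lists of both Has1 and Tnfaip6. For Vcan the nearest were Fn1 (0.88), Wnt5b (0.86), Has1 (0.84), P2ry1 (0.84) and Lrp1 (0.83), and Has1 was therefore the one member in another member's list. For Cd44 they were Rab32 (0.93), Pira2 (0.90), Csf2ra (0.89), Mcemp1 (0.89) and Themis2 (0.87), and for Hmmr Prc1 (0.98), Ccnb1 (0.97), Ckap2 (0.97), Bub1b (0.97) and Ect2 (0.97), genes of cell division. Hyal2 was nearest to Ccm2l (0.97), Tal1 (0.97), Ripply3 (0.96), Adcy4 (0.96) and Apold1 (0.96). Hyal1, with 269 UMIs, had its highest r at 0.80, with Lmntd1.

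Other genes of hyaluronan metabolism, a list of 37, were laid out over the same classes. Of the enzymes that supply the sugars, Ugdh (UDP-glucose dehydrogenase, which makes UDP-glucuronic acid) averaged 793 ± 252 CPM in inflammatory, 497 ± 122 CPM in adventitial, 234 ± 79.6 CPM in alveolar and 189 ± 45.8 CPM in Gas1 and Eln fibroblast-like cells (SD, n = 11, 4, 11 and 11). Gfpt2 averaged 442 ± 93.4 CPM, 430.4 ± 154 CPM, 55.2 ± 34.7 CPM and 179 ± 25.9 CPM in the same order. Uap1, which forms UDP-N-acetylglucosamine, averaged 337 ± 49.97 CPM in the inflammatory and 239.9 ± 87.0 CPM in the adventitial subtype. Adventitial cells had the highest means of the binding partners Ptx3 (189.8 ± 164 CPM), which joins hyaluronan through heavy chains, Itih5 (117 ± 127 CPM) and the proteoglycan gene Acan (97.7 ± 113 CPM), with SDs near or above the means over 4 replicates. Cemip2, the gene of a membrane protein described to cut hyaluronan, averaged 533 ± 106 CPM in general capillary cells (n = 12). Of the genes listed as receptors, Stab1 averaged 1148 ± 168 CPM in interstitial macrophage-like cells, and Stab2 had 34 UMIs in all kept cells. Lyve1 averaged 697 ± 696 CPM in lymphatic endothelial-like (n = 5), 494 ± 177 CPM in general capillary and 442 ± 200.5 CPM in interstitial macrophage-like cells. Spam1, the sperm hyaluronidase, had 0 UMIs.

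No difference of the 8 genes with genotype or tumor passed the test used. UMIs were summed per replicate and class and tested with edgeR's quasi-likelihood test across all genes of a class, with Benjamini-Hochberg adjustment and a threshold of 0.05. Of 112 tests, each of 1 gene in 1 class and 1 of 5 contrasts, 0 passed and 26 had an unadjusted p under 0.05, 23.2% of them, against 7.65% of the 222938 tests of all genes. Cd44 could be tested in 11 classes, Tnfaip6 in 5, Has1, Hyal2 and Vcan in 3 each and Has2 in 1, and Hyal1 and Hmmr passed the filter on low counts in none. DESeq2 on the same tests called 1, Cd44 in neutrophil-like cells. A p that misses the threshold does not show that a gene stayed the same, so intervals are given below. In sums of cells, fewer UMIs per cell and a shift among the cells grouped under one name cannot be told apart.

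For LAIR1KO against WT in tumor-bearing lung, a comparison of female with female mice, 0 of 26 tests passed, 3 had an unadjusted p under 0.05 (against 5.95% of all tests), DESeq2 called 0, and 0.0736% of all tests over all genes and classes passed. The median log2 fold change was -0.14 over the members' tests and -0.0035 over all. Has1 in Gas1 and Eln fibroblast-like cells stood at 438, 462 and 502 CPM in LAIR1KO lungs and 320.2, 297 and 369 CPM in WT lungs. The 2 groups did not overlap, and the log2 fold change was 0.58 ± 0.22 (SE; adjusted p = 0.876). It was -0.030 when the 8 genes were not left out before clustering, which put 3 of them among the variable genes. Its sign therefore rests on the clustering. In alveolar fibroblast-like cells the difference had the other sign, -1.09 ± 0.45 (SE; adjusted p = 1), with 141, 24.8 and 105 CPM in LAIR1KO and 76.8, 142 and 378 CPM in WT lungs, which overlapped. In the inflammatory subtype, which held most Has1, the log2 fold change was -0.16 with a 95% interval of -0.57 to 0.25. Vcan in the Gas1 and Eln subtype stood at 43.3, 59.3 and 54.0 CPM in LAIR1KO and 74.8, 82.3 and 92.2 CPM in WT lungs, without overlap, a log2 fold change of -0.64 ± 0.26 (SE; adjusted p = 0.876). For Has2 in the inflammatory subtype the interval ran from -0.79 to 0.38, and for Tnfaip6 there from -0.39 to 0.50. Cd44 in neutrophil-like cells had an interval of -0.0011 to 0.39 and in interstitial macrophage-like cells of -0.54 to 0.13.

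For LAIR1KO against WT in normal lung, where sex goes with genotype, 0 of 21 tests passed, 5 had an unadjusted p under 0.05 (against 8.48% of all tests), DESeq2 called 0, and 0.569% of all tests passed. Median log2 fold changes were -0.13 for the members and -0.0038 for all. Has1 in inflammatory fibroblast-like cells stood at 1343 and 1903 CPM in 2 LAIR1KO replicates and 1202, 745 and 940.5 CPM in 3 WT replicates. The groups did not overlap, and the log2 fold change was 0.74 ± 0.22 (SE; adjusted p = 0.784). Inflammatory markers together took 173 to 184 of 10000 UMIs in these LAIR1KO replicates and 108 to 186 in the WT ones, with none of the 7 at 0, and their part in the difference was not tested. Hyal2 in general capillary cells had 119, 91.2 and 133 CPM in LAIR1KO and 148, 212 and 147 CPM in WT lungs, without overlap, a log2 fold change of -0.54 ± 0.22 (SE; adjusted p = 0.452). Fibroblast markers took 2.67 to 5.27 of 10000 UMIs of those LAIR1KO cells and 0.450 to 2.26 of the WT ones. Of the 6 markers 1 was at 0 in LAIR1KO (Lum) and 2 in WT lungs (Dcn and Lum), and their part in the result was not tested. In aerocyte cells the Hyal2 difference was -0.59 ± 0.27 (SE; adjusted p = 0.547), with 107, 83.1 and 62.4 CPM in LAIR1KO and 139.6, 182 and 105 CPM in WT lungs, which overlapped. In interstitial macrophage-like cells it was -1.31 ± 0.52 (SE; adjusted p = 0.272), with 0, 7.43 and 7.72 CPM in LAIR1KO and 17.2, 13.4 and 18.2 CPM in WT lungs, and no overlap. Tnfaip6 in alveolar fibroblast-like cells had 219 and 1169 CPM in LAIR1KO and 269.5, 518 and 266 CPM in WT lungs, a log2 fold change of 0.94 ± 0.44 (SE; adjusted p = 0.768), whose sign turned without replicate 3 of LAIR1KO normal lungs (to -0.66) and under another rule for hashtags.

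For tumor-bearing against normal LAIR1KO lung, both female, 0 of 21 tests passed, 6 had an unadjusted p under 0.05 (against 7.48% of all tests), DESeq2 called 1, and 0.286% of all tests passed. Median log2 fold changes were 0.18 for the members and 0.00099 for all. Cd44 in neutrophil-like cells came nearest to the threshold, at 2828, 3435 and 3317 CPM in tumor-bearing and 2612, 2476 and 2513 CPM in normal lungs. The groups did not overlap, and the log2 fold change was 0.38 ± 0.096 (SE; adjusted p = 0.0846), while DESeq2 gave an adjusted p of 0.0364. Tnfaip6 in the same cells had 156, 131 and 78.2 CPM in tumor-bearing and 45.5, 79.4 and 69.1 CPM in normal lungs, which overlapped by 1 replicate, a log2 fold change of 0.89 ± 0.26 (SE; adjusted p = 0.148). Fibroblast markers took 0.436 to 0.576 of 10000 UMIs in the tumor-bearing and 0.212 to 0.546 in the normal neutrophil-like cells, with Lum alone of the 6 at 0 in both groups, and their part was not tested. Hyal2 in general capillary cells had 163, 219.6 and 168 CPM in tumor-bearing and 119, 91.2 and 133 CPM in normal lungs, without overlap, a log2 fold change of 0.69 ± 0.21 (SE; adjusted p = 0.160). The fibroblast markers in these cells took 0.316 to 1.201 of 10000 UMIs in tumor-bearing and 2.67 to 5.27 in normal lungs. In aerocyte cells the Hyal2 difference was 0.74 ± 0.30 (SE; adjusted p = 0.521) and in interstitial macrophage-like cells 1.496 ± 0.48 (SE; adjusted p = 0.338). The macrophage-like cells held Hyal2 at no more than 22.9 CPM, and endothelial markers took 0.169 to 0.347 of their 10000 UMIs in tumor-bearing and 0.308 to 0.714 in normal lungs, with none of 6 at 0. Has1 in the Gas1 and Eln subtype differed by 0.69 ± 0.27 (SE; adjusted p = 0.662), or by -0.28 when the 8 genes were not left out before clustering. The value of 0.69 rests on 2 normal replicates, at 432 and 131 CPM. Without replicate 2 of LAIR1KO normal lungs, the higher of the pair, it passed the test at 1.87 (adjusted p = 0.0221), with a lone normal replicate assumed to vary like the other groups.

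For tumor-bearing against normal WT lung, female against male, 0 of 23 tests passed, 6 had an unadjusted p under 0.05 (against 8.45% of all tests), DESeq2 called 0, and 0.537% of all tests passed. Median log2 fold changes were 0.19 for the members and -0.00016 for all. Cd44 in interstitial macrophage-like cells had 433, 405 and 520.4 CPM in tumor-bearing and 281, 279.5 and 363 CPM in normal lungs. The groups did not overlap, and the log2 fold change was 0.56 ± 0.17 (SE; adjusted p = 0.127). Neutrophil markers, of a class rich in Cd44, took 5.45 to 5.97 of 10000 UMIs in the tumor-bearing and 5.19 to 7.39 in the normal cells, with none of the 7 at 0. Has1 in alveolar fibroblast-like cells had 76.8, 142 and 378 CPM in tumor-bearing and 105, 15.7 and 58.2 CPM in normal lungs, which overlapped, with a log2 fold change of 1.71 ± 0.46 (SE; adjusted p = 0.271). Inflammatory markers took 18.1 to 31.2 of 10000 UMIs in the tumor-bearing and 16.2 to 20.1 in the normal cells, and their part was not tested. In the inflammatory subtype Has1 differed by 0.46 ± 0.19 (SE; adjusted p = 0.790). Vcan in Gas1 and Eln fibroblast-like cells had 74.8, 82.3 and 92.2 CPM in tumor-bearing and 41.4, 38.5 and 55.4 CPM in normal lungs, without overlap, a log2 fold change of 0.79 ± 0.23 (SE; adjusted p = 0.275). Tnfaip6 in neutrophil-like cells differed by 0.55 ± 0.27 (SE; adjusted p = 0.322) and Cd44 in alveolar type 2-like cells by 0.37 ± 0.15 (SE; adjusted p = 0.502).

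The interaction asked whether the tumor difference was the same in LAIR1KO and WT lung. Of 21 tests 0 passed, 6 had an unadjusted p under 0.05 (against 8.20% of all tests), DESeq2 called 0, and 0.373% of all tests passed, with median log2 values of 0.093 for the members and 0.0029 for all. Has1 had opposite signs in 2 subtypes, -0.90 ± 0.30 (SE; adjusted p = 0.871) in inflammatory and 0.95 ± 0.35 (SE; adjusted p = 0.503) in Gas1 and Eln fibroblast-like cells. For Cd44 it was 0.32 ± 0.13 (SE; adjusted p = 0.260) in neutrophil-like and -0.57 ± 0.24 (SE; adjusted p = 0.331) in interstitial macrophage-like cells. Neutrophil markers in the macrophage-like cells took 7.63 to 10.3 in LAIR1KO tumor-bearing lungs, 5.45 to 5.97 in WT tumor-bearing lungs, 10.2 to 19.5 in LAIR1KO normal lungs and 5.19 to 7.39 in WT normal lungs of 10000 UMIs, and their part in the result was not tested. For Hyal2 it was 0.85 ± 0.32 (SE; adjusted p = 0.421) in general capillary and 1.36 ± 0.61 (SE; adjusted p = 0.356) in interstitial macrophage-like cells. Without replicate 2 of LAIR1KO normal lungs the Has1 value in Gas1 and Eln cells was 2.14 and passed (adjusted p = 0.00945). Without replicate 1 of LAIR1KO tumor-bearing lungs the Cd44 value in interstitial macrophage-like cells was -0.84 and passed (adjusted p = 0.0491). These comparisons share libraries, so their values are not independent of each other.

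**Figure D5:**
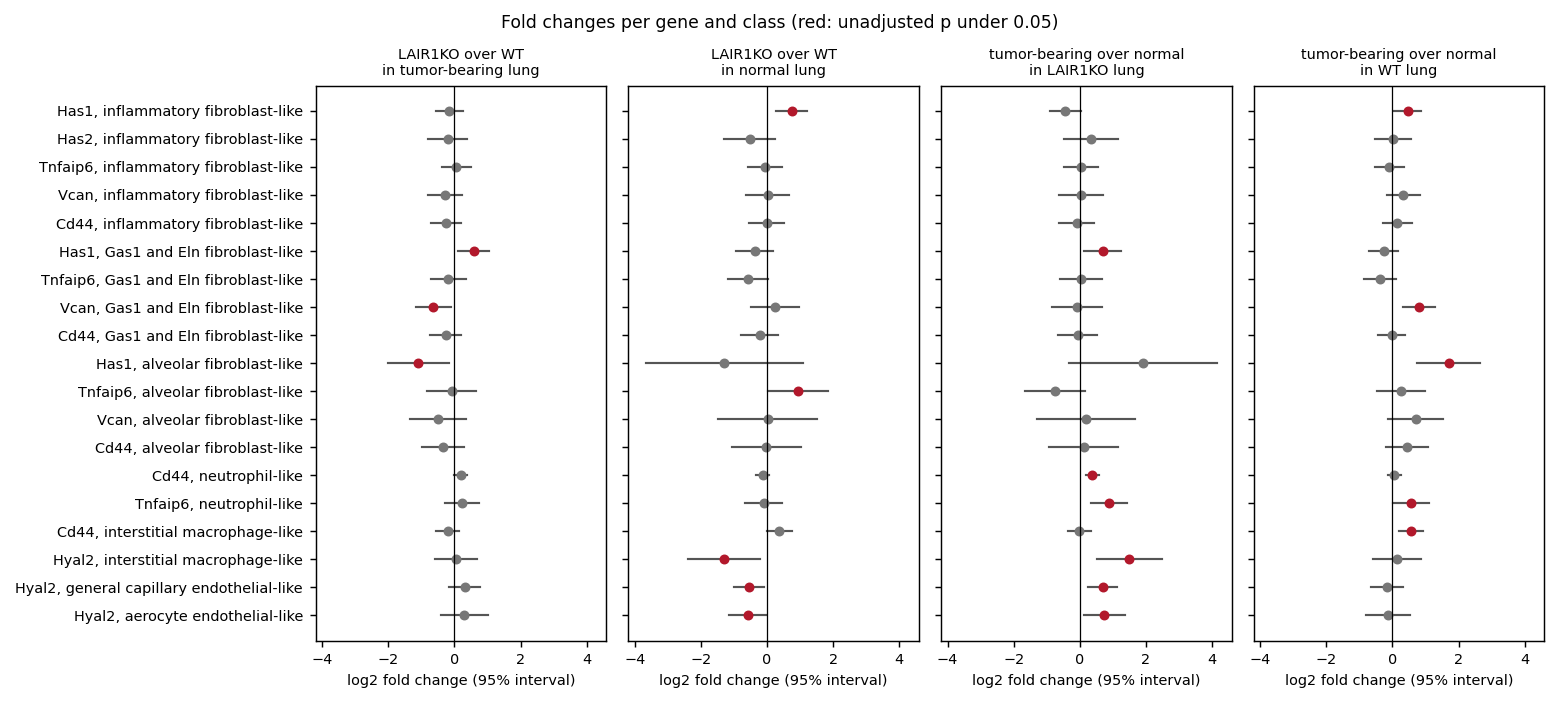
Log2 fold changes of the tested genes by cell class (rows) in the contrasts of genotype and of tumor (panels), with 95% intervals, for fibroblast, neutrophil-like, interstitial macrophage-like and capillary classes. Red marks an unadjusted p under 0.05, and no point passed after adjustment over all genes of the class; most intervals cross 0.

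Of the 37 other genes of hyaluronan metabolism, 20 could be tested, in 440 tests, of which 5 passed as higher and 5 as lower in 5 genes. In each contrast the counts of higher and lower were 0 and 1 for genotype in tumor-bearing lung, 1 and 1 for genotype in normal lung, 1 and 1 for tumor in LAIR1KO lung, 2 and 1 for tumor in WT lung and 1 and 1 for the interaction. These counts are of 102, 84, 84, 86 and 84 tests in that order of contrasts. Of the tests of all genes, 0.0736, 0.569, 0.286, 0.537 and 0.373% passed in the same order. Lyve1, a receptor gene, passed in 3 tests, all of them in one class. In interstitial macrophage-like cells it averaged 533 ± 91.6 CPM in LAIR1KO tumor-bearing lungs, 289 ± 65.4 CPM in WT tumor-bearing lungs, 287 ± 38.3 CPM in LAIR1KO normal lungs and 661 ± 226 CPM in WT normal lungs (SD, n = 3 each). It fell in LAIR1KO against WT normal lung, with a log2 fold change of -1.21 ± 0.21 (SE; adjusted p = 0.00305), and in tumor-bearing against normal WT lung, with -1.21 ± 0.20 (SE; adjusted p = 0.00307). These cells came from 2 clusters, and the one with Retnla, F13a1, Folr2 and Cd163 among its leading genes made up 47.1% in LAIR1KO tumor-bearing lungs, 36.4% in WT tumor-bearing lungs, 30.6% in LAIR1KO normal lungs and 57.1% in WT normal lungs, with replicates at 42.5 to 49.5% in LAIR1KO tumor-bearing lungs, 28.5 to 47.1% in WT tumor-bearing lungs, 29.2 to 40.0% in LAIR1KO normal lungs and 48.7 to 69.8% in WT normal lungs. Lyve1 averaged 971 ± 194 CPM in LAIR1KO tumor-bearing lungs, 626 ± 30.2 in WT tumor-bearing lungs, 703 ± 7.72 in LAIR1KO normal lungs and 995 ± 247 in WT normal lungs in that cluster and 118 ± 66.0 CPM in LAIR1KO tumor-bearing lungs, 71.0 ± 4.36 in WT tumor-bearing lungs, 103 ± 44.5 in LAIR1KO normal lungs and 105 ± 54.8 in WT normal lungs in the other (SD, n = 2 in the first cluster of LAIR1KO normal lungs and 3 elsewhere). The share of the first cluster was lower in the groups where Lyve1 was lower, and its part in the result was not tested. Tlr2, which can respond to hyaluronan fragments, rose in LAIR1KO against WT normal lung in the same cells, to 735 ± 59.7 CPM against 532 ± 30.04 CPM, a log2 fold change of 0.49 ± 0.12 (SE; adjusted p = 0.0395). It averaged 418 ± 39.8 CPM in LAIR1KO and 316 ± 72.3 CPM in WT normal lungs in the first cluster and 880.4 ± 63.6 and 902 ± 178 CPM in the other. Neutrophil markers took 10.2 to 19.5 of 10000 UMIs in the LAIR1KO and 5.19 to 7.39 in the WT normal cells, without overlap, and neither their part nor that of the clusters was tested. That call was lost in 4 of the 6 fits that each left out 1 replicate (adjusted p 0.0336 to 0.203). Without replicate 2 of LAIR1KO normal lungs the Lyve1 difference of genotype in normal lung lost its call (log2 -1.08, adjusted p = 0.0566).

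Thbs1, a matrix protein gene kept on the list as a binding partner, fell in alveolar type 2-like cells and rose in neutrophil-like cells. In the epithelial cells it averaged 604 ± 120.0 CPM in LAIR1KO tumor-bearing lungs, 1030.1 ± 186 CPM in WT tumor-bearing lungs, 1312 ± 125 CPM in LAIR1KO normal lungs and 926 ± 15.5 CPM in WT normal lungs (SD, n = 3, 3, 2 and 3). The log2 fold change was -0.71 ± 0.14 (SE; adjusted p = 0.0231) for LAIR1KO against WT in tumor-bearing lung and -1.06 ± 0.15 (SE; adjusted p = 0.000268) for tumor in LAIR1KO lung. Neutrophil markers, of the class rich in Thbs1, took 0.845 to 13.97 in LAIR1KO tumor-bearing lungs, 0.830 to 25.3 in WT tumor-bearing lungs, 16.4 to 19.9 in LAIR1KO normal lungs and 0.817 to 5.18 in WT normal lungs of 10000 UMIs in the type 2-like cells, with none of the 7 at 0, and their part in the result was not tested. The genotype call was lost when any 1 of 4 replicates was left out (adjusted p 0.00323 to 0.220 over the 6 fits), and both calls under another rule for hashtags (-0.46 and -0.36). In neutrophil-like cells of tumor-bearing against normal LAIR1KO lung it averaged 9114 ± 82.4 CPM against 6532 ± 665 CPM, a log2 fold change of 0.52 ± 0.099 (SE; adjusted p = 0.00953). Cemip2 rose in aerocyte cells of tumor-bearing against normal WT lung, to 340.5 ± 111 CPM against 109 ± 46.6 CPM, with 1.52 ± 0.30 (SE; adjusted p = 0.0406), and lost its call when any 1 of 4 replicates was left out (adjusted p 0.0163 to 0.212 over the 6 fits). Stab1 rose in alveolar type 2-like cells of the same comparison, to 24.1 ± 3.62 CPM against 4.72 ± 1.92 CPM, with 2.20 ± 0.50 (SE; adjusted p = 0.0314), a call lost when any 1 of the 6 replicates was left out (adjusted p 0.0614 to 0.216) and with DESeq2 (adjusted p = 0.233). It is a gene of macrophages, and the 8 interstitial macrophage markers took 1.99 to 6.03 of 10000 UMIs in these tumor-bearing and 0.313 to 0.635 in the normal cells, with none at 0, and their part in the result was not tested.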

How the data were processed

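For each of the 4 libraries the authors deposited a matrix of UMI counts per feature and barcode, whole numbers with no normalization. The submitters' processing notes name Cell Ranger 4.0.0, STAR, R 4.0.0, Seurat 3.2.0 and the build mm10. The use of strand in counting is not given in the sources used here.

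Cells with at least 300 genes and at most 10% mitochondrial UMIs were kept. Hashtags were called per library with HTODemux (Seurat 5.3.0, R 4.3.3, quantile 0.99). Doublets of hashtags (14.7 to 24.3% per library) and cells with no hashtag (23.0 to 33.0%) were left out, and cells marked by Scrublet (339) stayed in except in one alternative. Median UMIs per kept cell ran from 4356 to 5604 per library and replicates held 2378671 to 6202834 UMIs. Cells were clustered by the Leiden method (leidenalg 0.10.2, scanpy 1.11.5, Python 3.11.15; 2000 variable genes less the 8 members, 30 components, 15 neighbours, resolution 1.0, no integration), which gave 33 clusters and 22 named classes; 610 kept cells in mixed clusters stayed unnamed.

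UMIs were summed per replicate and class (at least 10 cells, at least 2 replicates a group) and tested with edgeR 4.0.16 (quasi-likelihood, TMM, filterByExpr, all groups in one fit, Benjamini-Hochberg per class and contrast), checked on simulated counts. DESeq2 1.42.0 and other settings were alternatives. All members are named, and of the other hyaluronan genes those past the threshold, with further levels chosen after they were seen. One further gene of hyaluronan metabolism is not reported here and is left out of the counts. The members and gene lists were chosen with earlier results of these data known. Gene positions come from GENCODE vM21.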

Additional observations from a re-analysis of the deposited data

Results flagged for a closer look

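Among the other genes of hyaluronan metabolism reported here, 2 differed between LAIR1KO and WT lung in how tumor-bearing and normal lungs compared, by the interaction term of the edgeR fit, and none of the 8 members did. In interstitial macrophage-like cells Lyve1 had an interaction of 2.10 ± 0.29 (SE, adjusted p = 0.000431) on the log2 scale, from 533 ± 91.6 CPM in tumor-bearing and 287 ± 38.3 CPM in normal LAIR1KO lungs and 289 ± 65.4 CPM in tumor-bearing and 661 ± 226 CPM in normal WT lungs. The share of these cells in the cluster with Retnla, F13a1, Folr2 and Cd163 among its leading genes was 47.1% in LAIR1KO tumor-bearing lungs, 36.4% in WT tumor-bearing lungs, 30.6% in LAIR1KO normal lungs and 57.1% in WT normal lungs, Lyve1 was higher in that cluster than in the other in every group, and the part of this share in the result was not tested. In alveolar type 2-like cells Thbs1 had an interaction of -1.15 ± 0.20 (SE, adjusted p = 0.00392), and its value was -0.31 (adjusted p = 0.910) under the other rule for hashtags. Neutrophil markers took 9.56 in LAIR1KO tumor-bearing lungs, 10.6 in WT tumor-bearing lungs, 18.1 in LAIR1KO normal lungs and 3.72 in WT normal lungs of 10000 UMIs of these cells on average, and their part in the result was not tested. The WT normal mice were male and the others female, and sex cannot be told apart from these differences.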

How the results depend on the processing

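The count of members past the threshold was 0 in each contrast. Besides the fits that left out 1 replicate at a time there were 8 alternatives. One of them asked for 20 cells per replicate, so replicates with fewer were dropped and some tests were not run. With it, tests of all genes for LAIR1KO over WT in normal lung went from 42343 to 14999, and a count of 0 there covers fewer tests. Over 39 pairs of an alternative and a contrast the count stayed 0 in 32, and 3 alternatives gave calls. Without a filter on low counts it was 2 for LAIR1KO over WT in tumor-bearing lung (Tnfaip6 in alveolar macrophage-like cells, 1.85, adjusted p = 0.0334, and Has1 in alveolar fibroblast-like cells, -1.07, adjusted p = 0.0446), 1 for LAIR1KO over WT in normal lung (Tnfaip6 in alveolar type 2-like cells, 3.74, adjusted p = 5.54e-05), 1 for tumor in LAIR1KO lung (the same gene and cells, -3.59, adjusted p = 0.00469) and 2 for tumor in WT lung (Has1 in alveolar fibroblast-like cells, 1.67, adjusted p = 6.55e-07, and Cd44 in interstitial macrophage-like cells, 0.58, adjusted p = 0.00553). DESeq2 called 1 for tumor in LAIR1KO lung. Hashtags by the margin of the highest over the next gave 1 there (Has1 in pericyte or smooth muscle-like cells, 5.05, adjusted p = 0.0325) and 1 for the interaction (Vcan in Gas1 and Eln fibroblast-like cells, -1.76, adjusted p = 0.0281). Leaving out 1 replicate at a time gave 0 to 1 for tumor in LAIR1KO lung and for the interaction and 0 for the other contrasts, and where 1 replicate was left in a group it is assumed to vary like the other groups. Directions turned for Tnfaip6 in alveolar fibroblast-like cells, LAIR1KO over WT in normal lung, at -0.041 by the margin rule and -0.66 without LAIR1KO normal replicate 3, with leave-one-out values from -0.66 to 1.78. They also turned for Has1 in Gas1 and Eln fibroblast-like cells when the members were not left out before clustering. That put 3 of them among the variable genes. The values were -0.030 for LAIR1KO over WT in tumor-bearing lung and -0.28 for tumor in LAIR1KO lung. Single tests were followed for members with an unadjusted p under 0.05 and for called genes of the wider list, and of 518 such values 475 kept direction and side of the threshold. At resolution 0.5 the inflammatory fibroblast-like level, pooled over replicates, was 770.4 CPM for Has1, 54.0 for Has2 and 896 for Tnfaip6. The share of UMIs in that subtype was then 75.2% for Has1, 84.1% for Has2, 68.5% for Tnfaip6 and 60.5% for Vcan. With the members not left out before clustering it was 69.0% for Has1, 59.3% for Tnfaip6 and 49.0% for Vcan. Without Scrublet-marked cells it was 57.1% for Has1 and 47.5% for Tnfaip6, and Cd44 in neutrophil-like cells 42.3%. With cells of no hashtag added, Has2 was at 69.2%, Cd44 in neutrophil-like cells at 36.3% and Hyal1 in aerocyte cells at 19.5%. The pooled levels were also computed without each library, an alternative chosen after the data were seen, and of those printed 3 moved by over 1.5 times: Vcan in classical monocyte-like cells to 87.6 CPM without WT normal lungs, Vcan in non-classical monocyte-like cells to 0 without LAIR1KO normal and up to 16.8 CPM without WT tumor-bearing lungs, and Has1 in pericyte or smooth muscle-like cells to 0 without LAIR1KO tumor-bearing and 75.5 CPM without LAIR1KO normal lungs. The cause of these changes was not tested. A fit of only the contrast's groups was not run for the interaction, which uses all 4. No paired analysis was possible because hashtag numbers only name replicates within a library.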
